A study of Mus musculus with 3 samples.

Results

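The cells described here are 89 astrocytes of the mouse nucleus accumbens that carried at least 1 UMI of mCherry, set against astrocytes of the same libraries with 0 mCherry UMIs. UMIs are random barcodes put on each captured RNA, so that amplified reads of the same molecule count once. The 89 cells came from 707 gated astrocytes, among 7844 cells that passed the depth filters and 11625 deposited cells. A gated astrocyte had at least 300 genes, at least 1000 UMIs and at most 20% mitochondrial UMIs, and at least 4 UMIs summed over Aqp4, Gja1, Slc1a2 and Slc1a3 with 2 or more of these genes detected. It also had 0 UMIs of the myelin genes Mog and Mag and at most 1 UMI of the synaptic genes Snap25 and Syt1. The members were chosen by their mCherry UMIs and by these gate genes, so those levels are a description and were not tested.

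All cells came from 1 group, represented by 3 samples from Thy1::ChR2 mice, in which FLiCRE labelling was run while channelrhodopsin (ChR2) was stimulated in the nucleus accumbens, and a 400 um coronal piece of brain was dissected. The Thy1 promoter drives the ChR2 transgene mainly in neurons. The promoter that drives the FLiCRE parts, the age of the mice and how many mice made up a sample are not given in the sources used here. Every cell of both arms therefore shares the strain, the labelling and the stimulation, and no unlabelled or unstimulated group was analysed here. The 3 libraries are told apart by the suffix of the cell barcode, which nothing ties to a numbered replicate, so library 1, 2 and 3 are only names. Nothing says that they came from separate mice. With library as block, p-values set the difference between arms against an error between libraries, and that variation may be technical. The error of each gene is moderated by that of all genes, to a median of 45.6 degrees of freedom, from only 3 pairs of sums. It thus comes mostly from all genes and little from how far the gene itself varies between the 3 libraries. A gene can pass although its libraries differ in direction, as Lcn2 did below.

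FLiCRE is a recorder of coincident light and calcium. When intracellular calcium rises under light, a TEV protease releases the transcription factor tTA from the membrane, and tTA switches on a reporter gene, here taken to be mCherry. Astrocytes are the glia that clear glutamate and potassium, supply metabolites to neurons and signal with calcium of their own. After injury, infection or inflammation they turn reactive, which is read from intermediate filament genes such as Gfap and Vim, acute phase genes such as Lcn2 and Serpina3n, and interferon or chemokine genes. The question asked of these cells was whether astrocytes that hold the reporter differ from depth-matched astrocytes without it in reactive, inflammatory and stress genes.

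The members were few and thinly labelled. Library 1 held 17 mCherry-positive astrocytes of 231, library 2 held 48 of 312, and library 3 held 24 of 164. Of the 89 cells, 75 held exactly 1 mCherry UMI and lie just inside the threshold, while the cells just outside it hold 0. A further 12 cells held 2 UMIs, 1 held 3 and 1 held 6, which makes 108 mCherry UMIs in all. Most members are thus separated from the negative arm by a single molecule.

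The share of astrocytes with mCherry was 7.36%, 15.4% and 14.6% in libraries 1 to 3, with exact (Clopper-Pearson) 95% bounds of 4.35% and 11.5% in library 1, 11.6% and 19.9% in library 2, and 9.61% and 20.99% in library 3, and a mean of 12.5% ± 4.43 (SD, n = 3). Neurons gated on Snap25 and Syt1 gave 9.52%, 21.9% and 12.8%. Astrocytes were thus below neurons in libraries 1 and 2 and above them in library 3. Oligodendrocytes, the type used here to read background, gave 1.80%, 11.2% and 2.79% (bounds 0.372% and 5.16%, 8.25% and 14.8%, and 1.13% and 5.66%). Median depths were 1892, 2187 and 3443 UMIs in astrocytes and 1347, 2198 and 4169 UMIs in oligodendrocytes. The intervals of astrocytes and oligodendrocytes overlapped in libraries 1 and 2 and did not in library 3. Intervals and the limits set by a count of 0 cover counting error only.

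**Figure D1:**
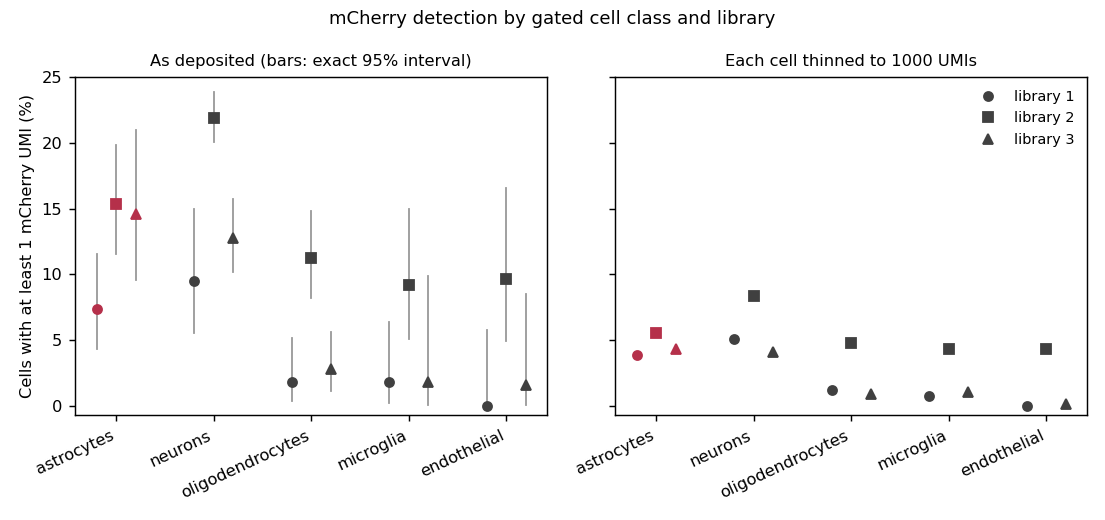
Percent of gated cells with at least 1 mCherry UMI, by cell class (horizontal) and library (symbol), as deposited with exact 95% intervals (left) and with every cell thinned to 1000 UMIs (right); astrocytes are in red. Thinned astrocytes lie between 3.89% and 5.55%, and in library 2 every class lies above 4%.

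The shares were lower at an equal, smaller depth. With every cell thinned to 1000 UMIs, which left out 0 cells, astrocytes stood at 3.89%, 5.55% and 4.31% (mean 4.58% ± 0.865), neurons at 5.09%, 8.40% and 4.10%, and oligodendrocytes at 1.18%, 4.76% and 0.905%. In library 2 the astrocytes were therefore close to the background type, and microglia (4.35%) and endothelial cells (4.37%) were there too. In libraries 1 and 3 the astrocytes stood above these 3 non-neuronal classes. Endothelial cells of library 1 gave 0 of 62 cells, which allows a share of up to 4.84% by the limit of 3 cells of the total (5.78% as the exact bound). As a level, astrocytes held 36.5, 73.0 and 45.0 mCherry UMIs per 1000000 UMIs (CPM). Neurons held 293, 151 and 472 CPM, and oligodendrocytes 11.3, 49.3 and 6.60 CPM. The highest cell of each library held 2, 6 and 2 mCherry UMIs in astrocytes and 74, 193 and 1029 in neurons. Free RNA that is taken up with a cell gives UMIs of genes the cell does not express. Its part in the single mCherry UMIs of astrocytes was not tested.

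For the comparison, each positive cell was matched to 2 mCherry-negative astrocytes of its library with the nearest total UMIs, from 618 available. This gave negative arms of 34, 96 and 48 cells. A match within 10% of total UMIs was found for 44 of 48 positive cells of library 2 and for all positive cells of libraries 1 and 3. Median depths were 1925, 3624.5 and 4496 UMIs in positive and 1924, 3491.5 and 4457.5 UMIs in matched negative cells, whereas all negatives had medians of 1890, 2039 and 3279.5. Counts were summed per library and arm, to 39024, 193779 and 115566 UMIs in the positive and 78119, 345140 and 230775 in the negative sums. Levels are given below as CPM of the sum. The sums of library 1 were the smallest.

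The label of an astrocyte held for the summed positive cells against genes the gate did not use, in a comparison that favours it. The other classes were gated to lack Aqp4 and Gja1 UMIs, so part of this outcome follows from the gates. The matched negative arm was not checked on its own, and a few of its cells held many C1q UMIs, as given below. Of 12 other astrocyte markers, 11 (Aldoc, Gjb6, Slc4a4, Atp1b2, Aldh1l1, Clu, Ntsr2, Mlc1, Fgfr3, Slc6a11 and Slc7a10) were higher in positive astrocytes than in gated neurons, oligodendrocytes, microglia and endothelial cells in 3 of 3 libraries. The exception was Glul, glutamine synthetase, which was highest in them in 1 of 3 libraries. Slc7a10 was near the floor in library 1, at 25.6 CPM and in 5.88% of positive cells. Gate genes, which the rule fixed and which were not tested, were alike in level. Slc1a2, the main glutamate transporter, was at 8435, 4594 and 8300 CPM in positive and 8615, 4340 and 8142 CPM in negative sums, and Aqp4, the water channel of astrocyte endfeet, at 590, 1285 and 1272 against 653, 1014 and 1213 CPM.

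Signs of other RNA in the cells differed between the arms in some libraries. A single Snap25 or Syt1 UMI, the most the gate allows, was present in 17.6%, 50% and 16.7% of positive and in 2.94%, 49.0% and 45.8% of negative cells. The median mitochondrial share was 9.18%, 14.0% and 11.2% in positive and 8.32%, 12.3% and 10.9% in negative cells, so it was slightly higher in 3 of 3 libraries. Of the cells with the highest doublet scores, 2 were positive and 7 matched negative. The part of these differences in the results was not tested. The libraries shared 13, 7 and 22 barcode sequences (1 with 2, 1 with 3 and 2 with 3), and 2 positive and 1 matched negative cell carried one.

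The other construct transcripts were not used to choose the cells and were rare. tTA was found in 2, 5 and 4 positive cells and in 0, 9 and 0 matched negative cells of libraries 1 to 3. As shares these were 11.8%, 10.4% and 16.7% against 0%, 9.38% and 0%, and the zeros allow, by the limit of 3 cells of the total, up to 8.82% of 34 cells and 6.25% of 48 cells (10.3% and 7.40% as exact 95% bounds). The positive share was higher in 3 of 3 libraries, by 9.82 ± 7.99 percentage points (SD, n = 3), although by only 1.04 points in library 2. With 1 matched negative per positive the tTA difference of library 2 was -4.17 points, so that the direction in 3 of 3 libraries depended on the matching. TEV was found in 0, 4 and 5 positive and 0, 10 and 3 negative cells, a difference of 4.17 ± 9.08 percentage points with a lower share in library 2. The sign in library 2 was not stable: it was 0.694 points with 3 negatives per positive, 2.27 with all negatives, 0.758 with matches within 10% of total UMIs and 10.4 with Snap25 and Syt1 at 0. The mean difference in TEV share was 1.58 points without cells of microglial C1q counts. Either transcript was detected in 18 of 89 positive cells (20.2%) and 20 of 178 negative cells (11.2%). In 71 positive cells mCherry was thus detected without a UMI of either part that drives it, which at these depths does not show absence.

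Neither transcript was abundant enough for the test over all genes. Without the filter on low counts, the log2 fold change of positive over negative was 0.88 for tTA (SE 0.969, 95% interval -1.37 to 3.14, edgeR adjusted p 0.955) and -0.09 for TEV (SE 0.637, interval -1.75 to 1.57, edgeR adjusted p 0.991). Neither passed, and the intervals leave room for a several-fold difference in either direction. Oligodendrocytes, at the lower depths given above, held tTA in 0%, 3.39% and 3.19% of cells, below the positive astrocytes in 3 of 3 libraries. They held TEV in 0%, 5.74% and 2.79% of cells, against 0%, 8.33% and 20.8% of positive astrocytes. Neurons, at median depths of 1671.5, 2993.5 and 3283.5 UMIs, held tTA in 17.3%, 30.1% and 35.2% of cells. TEV was in 29.8%, 43.5% and 55% of neurons.

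Over all genes, 9 of 2408 tested (0.374%) passed an edgeR adjusted p of 0.05, and 0 of them belonged to the interferon, MHC class I, NF-kB, heat shock, immediate early, endoplasmic reticulum, oxidative or p53 lists. Higher in mCherry-positive astrocytes were Plxnb2, Dhrs1 and Lcn2 (0.125% of tested genes). Lower were 6 genes (0.249%), among them the complement genes C1qa, C1qb and C1qc, the microglial gene Tyrobp, and Tmsb4x. At an unadjusted p under 0.05 there were 111 genes (4.61%). The median log2 fold change over all tested genes was -0.0041, and the median of their 95% intervals ran from -0.58 to 0.58. The interval lay within 2-fold either way for 1736 genes (72.1%) and within 1.5-fold for 476 (19.8%), which is the limit the edgeR fit puts on an undetected difference. DESeq2 gave standard errors of 0.188, 0.265 and 0.355 for Gfap, Vim and Cxcl10, against 0.128, 0.153 and 0.182 with edgeR. Its limits for these genes are thus wider. The number of calls was 10 without library 1, 0 without library 2 and 0 without library 3 (80 and 45 at an unadjusted p under 0.05, edgeR), and 0 with DESeq2 (13 at an unadjusted p under 0.05).

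**Figure D2:**
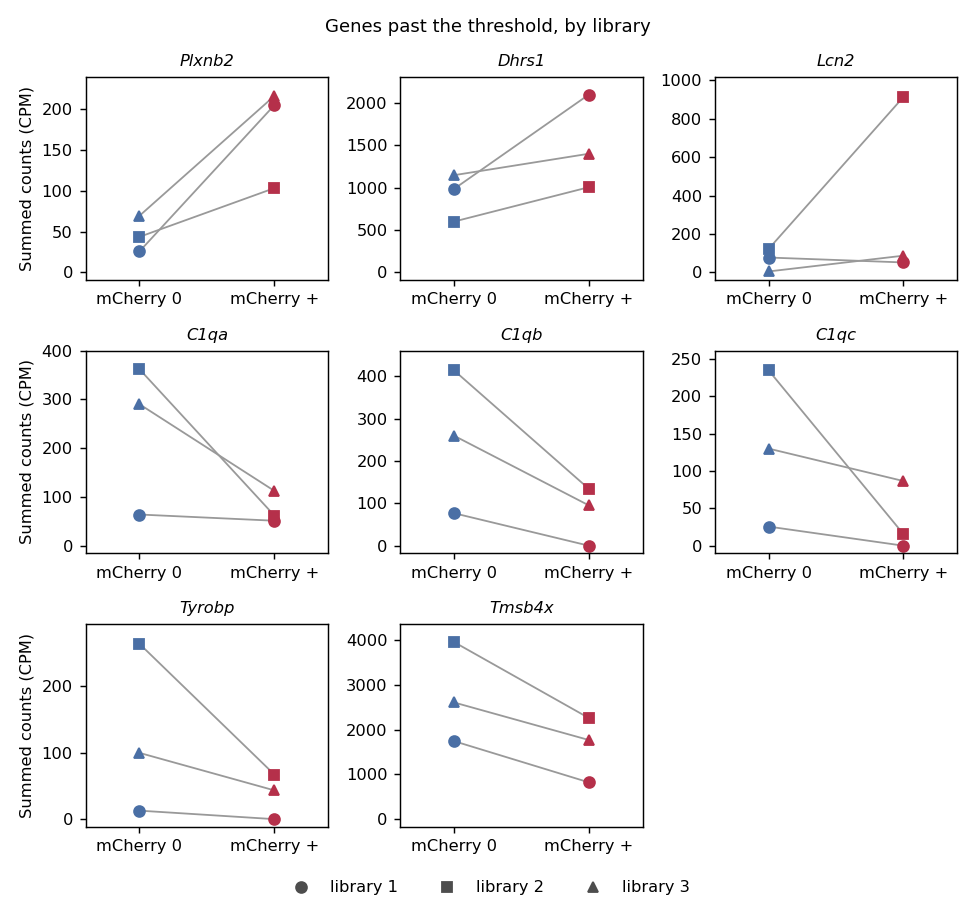
Summed counts (CPM) of 8 genes past the threshold in matched mCherry-negative (blue) and mCherry-positive (red) astrocytes; a line joins the sums of 1 library. Every gene shown except Lcn2 moves the same way in 3 of 3 libraries; Lcn2 is carried by library 2.

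Plxnb2 (ENSMUSG00000036606; mm10 chr15:89155549-89180788, minus strand), a plexin that receives semaphorin signals, was the gene with the broadest increase. It stood at 205, 103 and 216 CPM in positive sums of libraries 1 to 3 and at 25.6, 43.5 and 69.3 CPM in negative sums. All 3 positive sums lay above all 3 negative sums. It rose by 1.61 on the log2 scale (SE 0.344, 95% interval 0.92 to 2.30, edgeR adjusted p 0.00865), that is 3.06-fold. A UMI was present in 34 of 89 positive cells (38.2%) and 30 of 178 negative cells (16.9%), with at most 5 UMIs in any cell. The counts behind it are small, 53 and 33 UMIs. The call was lost without library 1 (1.45, edgeR adjusted p 0.162), library 2 (1.86, 0.761) or library 3 (1.60, 0.998), and without its single highest cell (1.51, edgeR adjusted p 0.0646).

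Dhrs1 (ENSMUSG00000002332; mm10 chr14:55739020-55745690, minus strand), a short-chain dehydrogenase, was at 2102, 1007 and 1402 CPM in positive and 986, 600 and 1148 CPM in negative sums. The positive sum was higher in each library, but the groups overlapped across libraries. It rose by 0.64 on the log2 scale (SE 0.146, edgeR adjusted p 0.0174), with a UMI in 66 of 89 against 118 of 178 cells. A single cell of library 1 held 46 of its 439 UMIs, and without that cell the difference was 0.41 (edgeR adjusted p 0.452). Without library 1, 2 or 3 it was 0.52, 0.59 and 0.86, and did not pass (edgeR adjusted p 0.494, 0.761 and 0.663).

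Lcn2 (ENSMUSG00000026822; mm10 chr2:32384633-32388252, minus strand), an iron-siderophore binding protein that reactive astrocytes secrete, had the largest fitted increase and rested on 1 cell. Its sums were 51.3, 914 and 86.6 CPM in positive and 76.8, 122 and 4.33 CPM in negative astrocytes, so it was lower in library 1. The fitted difference on the log2 scale was 2.72 (SE 0.327, edgeR adjusted p 6.22e-06). Of 189 Lcn2 UMIs in the positive arm, 157 came from 1 cell of library 2, which had 11019 UMIs in all, 1 mCherry UMI and 26 UMIs of the gate's astrocyte genes. Without that cell the difference was 0.40 (SE 0.473, edgeR adjusted p 0.999). The deepest negative astrocyte of library 2 had 9325 UMIs, so that cell had no close match in depth. With matches within 10% of total UMIs, the difference was 0.47 (SE 0.468, edgeR adjusted p 0.9997). Lcn2 was detected in 10 of 89 positive (11.2%) and 17 of 178 negative cells (9.55%), and it moved in 2 directions over libraries, so it falls outside the rule for leading genes and is named as a called member of the reactive list. Timp1, an inhibitor of matrix proteases, was at 0, 599 and 60.6 CPM in positive and 0, 127 and 56.3 CPM in negative sums and did not pass the filter on low counts over the 3 libraries. It was concentrated in the same cell, which held 68 of its 123 UMIs in the positive arm, beside 38 UMIs of Gfap and 48 of Cxcl10.

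Of the 6 genes that fell, 5 are markers of microglia. C1qa, C1qb and C1qc encode the chains of C1q, which starts the classical complement cascade and is made in brain mainly by microglia, and they neighbour each other on mm10 chromosome 4, between 136880129 and 136898803. C1qa (ENSMUSG00000036887) was at 51.3, 61.9 and 113 CPM in positive and 64.0, 362 and 290 CPM in negative sums. It fell by 1.90 on the log2 scale (SE 0.305, 95% interval -2.52 to -1.29, edgeR adjusted p 0.000142). C1qb (ENSMUSG00000036905) was at 0, 134 and 95.2 against 76.8, 414 and 260 CPM and fell by 1.60 (SE 0.283, edgeR adjusted p 0.000595). C1qc (ENSMUSG00000036896) was at 0, 15.5 and 86.6 against 25.6, 235 and 130 CPM and fell by 2.14 (SE 0.445, edgeR adjusted p 0.0115). Each positive sum was below the negative sum of its own library, while levels overlapped across libraries. Detection did not fall in every library. A C1qa UMI was present in 11.8%, 22.9% and 8.33% of positive and 2.94%, 32.3% and 14.6% of negative cells. For C1qb the shares were 0%, 35.4% and 20.8% against 11.8%, 35.4% and 25%. For C1qc they were 0%, 6.25% and 20.8% against 2.94%, 22.9% and 4.17%.

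Tyrobp (ENSMUSG00000030579), the signalling adaptor of microglial receptors, fell by 1.75 on the log2 scale (SE 0.359, edgeR adjusted p 0.0065), from 12.8, 264 and 99.7 CPM in negative to 0, 67.1 and 43.3 CPM in positive sums. A Tyrobp UMI was present in 0%, 25% and 12.5% of positive and 2.94%, 29.2% and 6.25% of negative cells. Tmsb4x (ENSMUSG00000049775), which binds actin monomers, is abundant in microglia and present in most cell types, fell by 0.78 (SE 0.138, edgeR adjusted p 0.000595), with 820, 2256 and 1766 CPM against 1741, 3952 and 2604 CPM. Unlike the others Tmsb4x was found in nearly all cells, 84 of 89 positive and 169 of 178 negative, but its counts were uneven. Negative cells of library 2 reached 152, 142, 98 and 97 UMIs, where no positive cell exceeded 40. Those with 152, 142 and 97 held only 2, 1 and 2 C1q UMIs, under the cut for C1q cells used below. Without its highest cell alone Tmsb4x still passed (-0.71, edgeR adjusted p 0.00131). The part of these cells together was not tested. C1qa, C1qb, C1qc, Tyrobp and Tmsb4x still passed without library 1; without library 2 or library 3 no gene did.

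Much of the C1q signal of the negative arm sat in a few cells, which were picked here by their own C1q counts. Negative cells with at least 4 C1q UMIs and 2 or more C1q genes numbered 9 of 178 (5.06%; 1, 6 and 2 by library), and positive ones 2 of 89 (2.25%; 0, 0 and 2). These 9 cells held 423 of the 519 C1q UMIs of the negative arm (81.5%), with 4 to 114 each, at a median of 6 UMIs of the gate's astrocyte genes. With these cells left out of both arms and the match repeated, a step added after the result was seen and no test of the C1q genes themselves, 4 genes passed (3 of them among the 9), namely Lcn2, Timp1 and Plxnb2 (1.58, SE 0.352, edgeR adjusted p 0.0056) higher and Tmsb4x lower, at -0.60 (SE 0.153, edgeR adjusted p 0.0481). In the main arms, the summed C1q genes of cells outside this cut were at 51.3, 212 and 57.9 CPM in positive cells. In negative cells they were at 40.6, 235 and 81.6 CPM. A C1q UMI was present in 39.1% of those positive and 44.4% of those negative cells, a description, as the cut uses C1q. Where the astrocyte genes had to reach 8 UMIs, C1qa was at -0.05 and C1qb at -0.02 on the log2 scale (edgeR adjusted p 0.999 for both). Tmsb4x was there at -0.38 and did not pass (edgeR adjusted p 0.957), whereas Plxnb2 passed at 1.56 (edgeR adjusted p 0.0355).

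**Figure D3:**
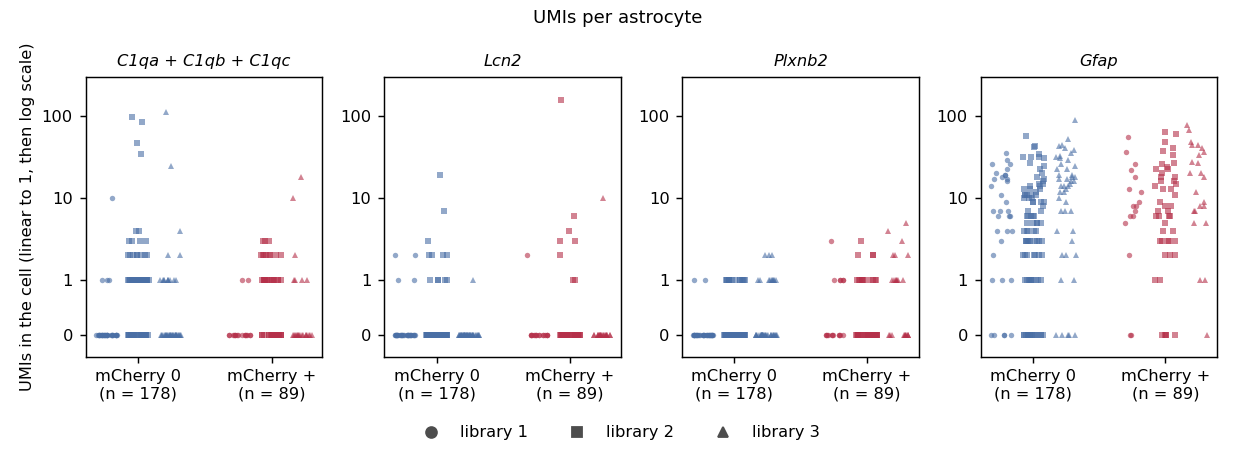
UMIs per cell of the summed C1q genes, Lcn2, Plxnb2 and Gfap in 178 matched negative (blue) and 89 positive (red) astrocytes, 1 point per cell with the library as symbol; the vertical axis is linear to 1 and logarithmic above. C1q reaches 114 UMIs in a negative cell, 1 positive cell of library 2 holds 157 Lcn2 UMIs, and no cell holds more than 5 Plxnb2 UMIs.

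As a whole list, 7 of 13 microglial markers were abundant enough to be tested, 5 passed as lower (0.249% of all tested genes did) and all 7 had a negative log2 fold change (50.5% of all tested genes did), with a median of -1.67 against -0.0041 over all tested genes. The list's summed level was 103, 563 and 753 CPM in positive and 371, 2234 and 1499 CPM in negative sums. The members that did not pass were Ctss, a cathepsin (-1.08, 95% interval -1.75 to -0.42), and Fcer1g, an Fc receptor chain (-1.02, interval -1.72 to -0.32). Tmem119, a defining marker of microglia, was at 0, 0 and 17.3 CPM against 12.8, 29.0 and 39.0 CPM. Of the macrophage and T cell list none could be tested. Its sum was 51.3, 305 and 34.6 CPM in positive and 128, 2211 and 78.0 CPM in negative astrocytes, and Mrc1, Cd3d, Cd3e, Cd3g, Ccr7 and Ccl22 were at 0 in the positive arm.

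Among reactive astrocyte genes, 10 of 20 were tested, 1 passed as higher (Lcn2; 0.125% of all tested genes did), 0 passed as lower (0.249%), and 5 had an unadjusted p under 0.05 (4.61%; edgeR). Its tested members had a median of 0.21 on the log2 scale. That median ran from 0.095 to 0.42 over 22 alternatives and moved by less than its spread between libraries in 9 of them. In the main comparison 4 of its tested genes were higher in 3 of 3 libraries, where 12.7% of all tested genes were. Gfap (ENSMUSG00000020932), the intermediate filament that marks reactive astrocytes, was at 5999, 3428 and 4942 CPM in positive and 4596, 2411 and 3727 CPM in negative sums. It was higher in each library, with overlap across libraries, at a log2 fold change of 0.41 (SE 0.128, 95% interval 0.15 to 0.67), which did not pass (edgeR adjusted p 0.345). Its interval limits an increase to less than 2-fold. Gfap was detected in 81 of 89 positive and 152 of 178 negative cells.

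Vim, the intermediate filament vimentin, was the gene with the smallest p among higher genes that did not pass. It was at 667, 976 and 1402 CPM in positive and 563, 675 and 867 CPM in negative sums, a log2 fold change of 0.54 (SE 0.153, interval 0.23 to 0.85, edgeR adjusted p 0.202). It passed in 1 alternative, without the cells of highest doublet score (0.59, edgeR adjusted p 0.0435). Where a positive cell needed 2 mCherry UMIs, which left libraries 2 and 3, Vim was lower, at -0.88 (edgeR adjusted p 0.984). Serpina3n, a serine protease inhibitor induced in reactive astrocytes, was at 820, 619 and 796 against 704, 432 and 464 CPM (0.53, interval 0.20 to 0.87, edgeR adjusted p 0.345). The calcium-binding S100a6 (0.51) and the tubulin gene Tuba1a (0.55) were also higher in 3 of 3 libraries without passing (edgeR adjusted p 0.345 and 0.27). S100a6 passed in 2 alternatives, with 3 matched negatives per positive and without the cells of highest doublet score. Complement C4b (0.26, interval -0.11 to 0.63), the hyaluronan receptor Cd44 (0.15, interval -0.39 to 0.69) and the oncostatin receptor Osmr (0.17, interval -0.40 to 0.73) had intervals on both sides of 0.

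Of the lists that follow none held a called gene with edgeR or DESeq2, and the number at an unadjusted edgeR p under 0.05 is given for each. The A1 and A2 panels are gene sets that earlier work named for kinds of reactive astrocyte. Of the A1 panel 5 of 13 genes were tested (2 at an unadjusted p under 0.05), with a median of -0.50, and 4 of the 5 were negative. H2-D1 (-0.54, interval -0.97 to -0.12), the immunoproteasome subunit Psmb8 (-0.54, interval -1.08 to -0.01) and the interferon-induced GTPases Iigp1 (-0.50) and Gbp2 (-0.37) did not pass. Of the A2 panel 3 of 12 were tested (0 unadjusted), with a median of 0.19, and S100a10 (0.19, interval -0.24 to 0.61) and Tm4sf1 (0.48, interval -0.24 to 1.19) were not distinguishable from 0. Some genes stand in more than 1 list, H2-D1 and Psmb8 in both the A1 panel and MHC class I, Cxcl10 in the reactive and the NF-kB lists, and Gfap and Mt3 in the homeostatic list.

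**Figure D4:**
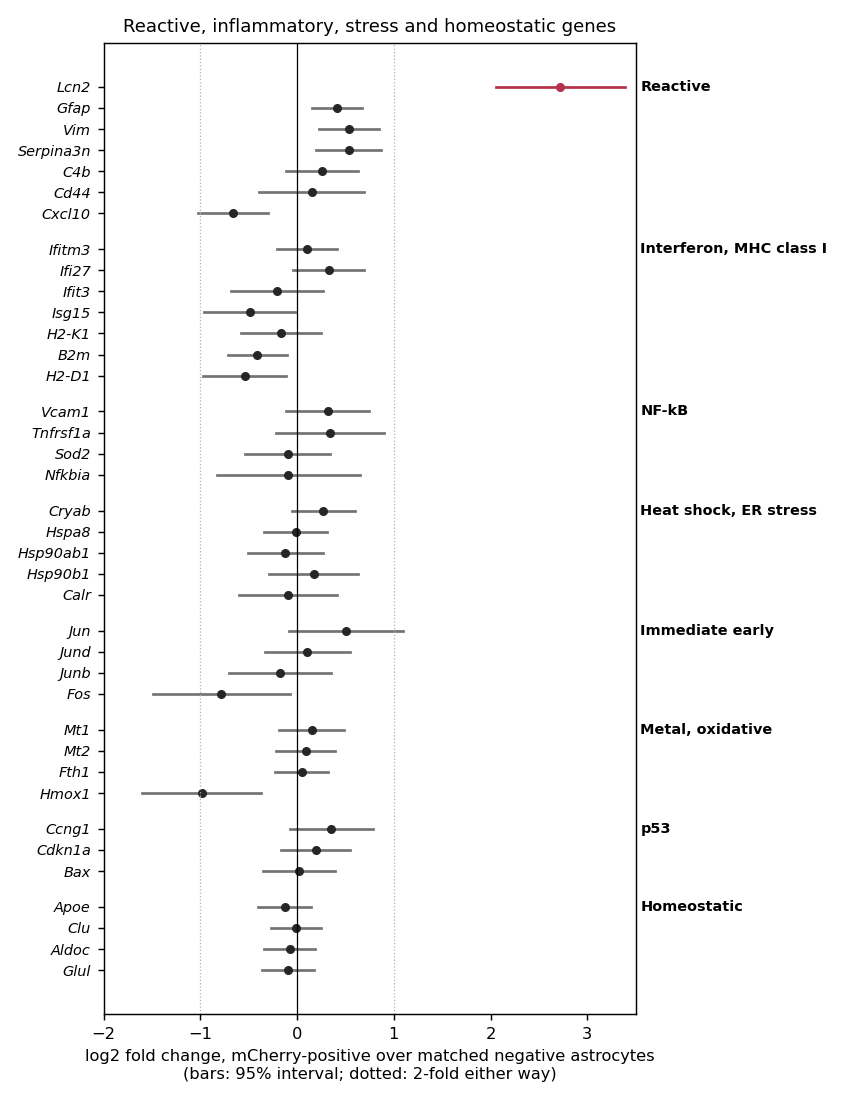
Log2 fold change of mCherry-positive over matched negative astrocytes (point) with its 95% interval (bar) for reactive, inflammatory, stress and homeostatic genes; red marks an edgeR adjusted p under 0.05 and dotted lines a 2-fold difference either way. Lcn2, at 2.72, is the only gene drawn in red, and the intervals of Gfap, Vim and Serpina3n lie between 0 and the 2-fold line.

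Interferon and antigen presentation genes did not differ detectably. Of 28 interferon-response genes 16 were tested, 0 passed (3 unadjusted), the median was -0.015 on the log2 scale and 11 intervals lay within 2-fold. Ifitm3, which blocks entry of viruses, was at 513, 1358 and 762 CPM in positive and 358, 1304 and 750 CPM in negative astrocytes (0.10, interval -0.21 to 0.42). The interferon-induced genes Ifit3 (-0.21, interval -0.68 to 0.27) and Isg15 (-0.49, interval -0.96 to -0.02) did not pass. Isg15 stood at 25.6, 408 and 164 CPM in positive and 38.4, 458 and 364 CPM in negative sums, lowest in library 1 in both arms.

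Of 11 MHC class I genes 7 were tested, 0 passed (3 unadjusted), and all 7 log2 fold changes were negative with a median of -0.37. Of these, 3 were lower in 3 of 3 libraries, against 13.2% of all tested genes. B2m, the light chain of MHC class I, was at 513, 1254 and 961 CPM in positive and 934, 1428 and 1326 CPM in negative sums (-0.41, interval -0.71 to -0.11, edgeR adjusted p 0.831). H2-K1 was at -0.17 (interval -0.58 to 0.25). These genes are also expressed by microglia, whose markers were lower in the same sums, and the part of that was not tested.

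Of 31 NF-kB, cytokine and chemokine genes 8 were tested and 0 passed (1 unadjusted), with a median of -0.16. Cxcl10, a chemokine induced by interferon, was at 0, 547 and 701 CPM in positive and 25.6, 788 and 1222 CPM in negative sums (-0.66, interval -1.03 to -0.30, edgeR adjusted p 0.149). A single positive cell held 80 of the 81 Cxcl10 UMIs of the positive sum of library 3. In library 2 the positive cell with the most Lcn2 held 48 of 106. The highest negative cell held 107 of the 556 UMIs of its arm. The part of these cells in the difference was not tested. A Cxcl10 UMI was present in 18.0% of positive and 21.3% of negative cells. By library the shares were 0%, 29.2% and 8.33% against 5.88%, 22.9% and 29.2%, so detection was higher in positive cells of library 2. The summed level of Cxcl10 was lower in 3 of 3 libraries, in library 1 by 0 against 2 UMIs. It passed against negatives within 10% of total UMIs and where a positive cell needed 2 mCherry UMIs, which left libraries 2 and 3 (log2 fold changes over all its alternatives from -2.15 to 0.44, the positive value with Snap25 and Syt1 at 0). The adhesion molecule Vcam1 (0.32, interval -0.11 to 0.74), the receptor Tnfrsf1a (0.34, interval -0.22 to 0.90), the superoxide dismutase Sod2 (-0.10, interval -0.54 to 0.35) and the inhibitor Nfkbia (-0.09, interval -0.83 to 0.65) did not pass. Ccl3, Cxcl2, Tnf, Il1a, Tlr2 and Ptgs2 were at 0 in the positive arm.

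No gene of the stress lists passed. Of 16 heat shock genes 8 were tested (1 at an unadjusted p under 0.05), and 7 intervals lay within 2-fold. The chaperone Hspa8 was at 667, 816 and 597 CPM in positive and 563, 797 and 676 CPM in negative sums (-0.01, interval -0.34 to 0.31), and Hsp90ab1 was at -0.12 (interval -0.51 to 0.27). Hspb1, a small heat shock protein, was too rare to be tested, at 0, 36.1 and 34.6 CPM against 0, 60.8 and 73.7 CPM. Of 21 genes of endoplasmic reticulum and integrated stress 8 were tested (0 unadjusted), and 8 intervals lay within 2-fold, with a median of 0.032. The reticulum chaperones Hsp90b1 (0.17, interval -0.29 to 0.63) and Calr (-0.10, interval -0.60 to 0.41) are examples. Of 13 p53 and DNA damage genes 6 were tested (0 unadjusted), all 6 were positive, and 6 intervals lay within 2-fold. Cdkn1a, the cell cycle inhibitor p21, was at 0.19 (interval -0.17 to 0.55) and Ccng1 at 0.35 (interval -0.07 to 0.78).

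Metal and oxidative stress genes include the metallothioneins, which were the most abundant stress transcripts of these cells. Mt1 was at 41276, 13525 and 31540 CPM in positive and 55185, 9251 and 23954 CPM in negative sums. It was lower in library 1 and higher in libraries 2 and 3 (0.15, interval -0.18 to 0.49), and Mt2 (0.09, interval -0.22 to 0.39) took the same directions. Of 21 genes in this list 15 were tested, 0 passed (3 unadjusted) and 14 intervals lay within 2-fold. The exception was Hmox1, which breaks down heme, at 25.6, 92.9 and 95.2 CPM in positive and 25.6, 209 and 169 CPM in negative sums (-0.99, interval -1.60 to -0.37, edgeR adjusted p 0.345). A single negative cell held 53 of the 113 Hmox1 UMIs of its arm, and its part was not tested. Hmox1 was detected in 5.88%, 25% and 29.2% of positive and 2.94%, 18.8% and 39.6% of negative cells of libraries 1 to 3. The ferritin chain genes were at 0.05 (Fth1, interval -0.23 to 0.32) and -0.45 (Ftl1, interval -0.78 to -0.13).

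Immediate early genes, which follow calcium entry and also tissue handling, were mostly too rare to test. Of 24 listed genes 4 passed the filter and 0 were called (1 unadjusted). Fos was at 0, 41.3 and 156 CPM in positive and 64.0, 101 and 191 CPM in negative sums, lower in 3 of 3 libraries (-0.78, interval -1.49 to -0.08, edgeR adjusted p 0.997). Jun was higher in 3 of 3 libraries by small counts (0.51, interval -0.08 to 1.09), and Junb (-0.18) and Jund (0.11) had intervals on both sides of 0. Egr1, which was not tested, stood at 0, 36.1 and 60.6 CPM against 0, 43.5 and 108 CPM. Fosb, Egr2, Egr3, Nr4a2, Nr4a3 and Klf4 were at 0 in the positive arm. The list's summed level was 487, 898 and 1333 CPM in positive and 525, 1095 and 1395 CPM in negative sums.

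Genes of calcium signalling gave no call among 10 tested of 32 (0 unadjusted), with a median of 0.025. The calmodulin genes Calm2 (-0.20, interval -0.54 to 0.15) and Calm3 (0.03, interval -0.30 to 0.36) had intervals within 1.5-fold, and the GABA-B receptor subunit Gabbr1 was at 0.13 (interval -0.33 to 0.60). Of the 32 genes 4 were at 0 in the positive arm, among them the muscarinic receptor Chrm3 and the channel Trpa1, and most of the others had too few counts for the filter.

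The homeostatic programme was the best measured. Of 41 genes 40 were tested, 0 passed (3 unadjusted), and 38 intervals lay within 2-fold, 29 of them within 1.5-fold. Apoe, the main lipid carrier, was at 18100, 22837 and 13260 CPM in positive and 23080, 23950 and 12332 CPM in negative sums (-0.13, interval -0.40 to 0.15). Clu (clusterin, -0.01, interval -0.27 to 0.24), Aldoc (the brain aldolase, -0.08, interval -0.34 to 0.18) and Glul (-0.09, interval -0.36 to 0.17) were as close. The lowest gene of the list was Gjb6, connexin 30, at 103, 160.03 and 69.2 CPM against 269, 217 and 160.3 CPM (-0.78, interval -1.34 to -0.22, edgeR adjusted p 0.766). It was lower in 3 of 3 libraries and the groups did not overlap, by a narrow margin between the highest positive and the lowest negative sum, but it did not pass.

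**Figure D5:**
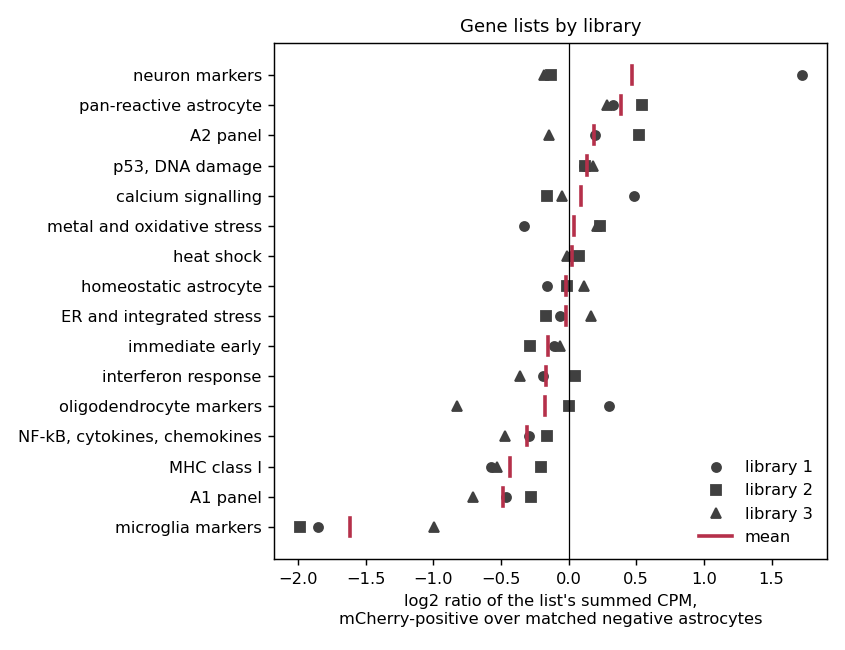
Log2 ratio of the summed CPM of 16 gene lists, mCherry-positive over matched negative astrocytes, by library (symbol) with the mean of 3 libraries (red line). Of the lists drawn, microglia markers lie lowest, from -1.99 to -0.99, reactive genes lie from 0.28 to 0.54, and neuron markers reach 1.73 in library 1 only.

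Markers of other cells were read the same way. Of 22 neuron markers 10 were tested, 0 passed (0 unadjusted) and the median was 0.083. Their summed level was 2077, 2013 and 1212 CPM in positive and 627, 2202 and 1378 CPM in negative sums, so it was higher in positive astrocytes of library 1 alone, beside the higher share of cells with a Snap25 or Syt1 UMI there. With cells of 0 Snap25 and Syt1 UMIs only, Plxnb2 was at 2.13 (edgeR adjusted p 0.0025) and Dhrs1 at 0.62 (edgeR adjusted p 0.177). Of 12 oligodendrocyte markers 7 were tested and 0 passed (2 unadjusted), with a median of -0.35. The myelin gene Mbp was at 513, 588 and 1705 CPM in positive and 282, 661 and 4407 CPM in negative sums (-0.65, interval -1.94 to 0.64), although Mog and Mag were 0 by the gate. Of oligodendrocyte precursor markers none was tested. Of 16 endothelial, mural and fibroblast markers 1 was, the collagen-binding Dcn, at 0, 253 and 0 CPM against 0, 194 and 212 CPM, which did not pass (0 unadjusted).

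Among lower genes that did not pass, the smallest p belonged to Ctsz, a lysosomal cathepsin that microglia express. It was at 103, 134 and 60.6 CPM in positive and 218, 267 and 169 CPM in negative sums, so that the groups did not overlap (-1.12, interval -1.69 to -0.55, edgeR adjusted p 0.0578), and it passed in 3 alternatives. Stmn1, which destabilises microtubules, was at 76.9, 222 and 173 CPM against 154, 362 and 282 CPM (-0.72, interval -1.20 to -0.24, edgeR adjusted p 0.528). Both were lower in 3 of 3 libraries.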

How the data were processed

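The kit was 10x Genomics 3′ v2, per the labels. The authors deposited whole UMI counts per gene and cell as 1 pooled matrix of 28001 features, from Cell Ranger 3.0 with build mm10 per the submitters' processing notes (version 3.0.0 per the file headers). The rule that called cells and the sequences behind mCherry, TEV and tTA are not given in the sources used here. Raw counts were summed per library and arm without mCherry and tested with edgeR 4.0.16 (quasi-likelihood, robust prior, TMM, filterByExpr, library as block, Benjamini-Hochberg at 0.05). The gate genes entered library sizes and were not tested. Library is a block because each library gives a positive and a negative sum. Standard errors are the log2 fold change over the square root of F, and 95% intervals use the fitted degrees of freedom. The main edgeR fit was also run on simulated sums. These were drawn without single cells of extreme counts, so that run cannot judge calls that rest on a few cells. Doublets were not removed; Scrublet scores (scanpy 1.11.5) served as an alternative. Coordinates come from GENCODE M21 (mm10). DESeq2 1.42.0, other matching, gates, filters and left-out libraries were alternatives. The members, gene lists and edgeR settings were chosen with earlier results of these data known. Genes named are called genes that moved the same way in every library, the 5 higher and 5 lower genes with the smallest p among the rest, called and 4 most abundant tested members of each list, and a fixed set of reactive, interferon and stress genes; others were named after their values were seen. Of the genes this rule picks, 3 are not reported here, 1 of them called.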

Additional observations from a re-analysis of the deposited data

How the results depend on the processing

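The count of 9 genes was the least stable result. Leaving out each library gave 0 to 10 genes. It was 0 with DESeq2 (13 genes at an unadjusted p under 0.05), 0 with no low-count filter (14305 genes tested, 368 unadjusted) and 0 with no replicate block (9 unadjusted). It was 5 with matches within 10% of total UMIs, 4 with both arms free of TEV and tTA, 4 without cells of microglial C1q counts, 3 with at least 2000 UMIs, 2 with an astrocyte marker sum of at least 8, 2 with Snap25 and Syt1 at 0, and 1 with at least 2 mCherry UMIs (572 genes tested in libraries 2 and 3). Against all negatives without matching it was 3 (Cd74, H2-Ab1 and H2-Aa, all lower), with 0 shared with the 9. What causes these changes was not tested, except that fewer or more genes and cells entered some fits. The mCherry share was 4.58% after thinning to 1000 UMIs and ranged from 11.0% to 15.01% over fits lacking 1 library. In those fits the difference in TEV share was -1.04 to 7.29 and that in tTA share 6.40 to 14.2 percentage points, and both were 20 with at least 2 mCherry UMIs. Dhrs1 reversed to -0.17 with at least 2 mCherry UMIs (edgeR adjusted p 0.984). Of 1713 alternatives of single genes, 80 lost the call and 9 gained it. In 1472 a called gene stayed called or a gene without a call moved by less than 1 SE, and in 151 a gene without a call moved further. The sign changed in 128, of which 1 was of a called gene (Dhrs1) and 127 of genes without a call, among them Vim and Cxcl10. Of 383 alternatives of list medians, 352 stayed and 31 moved. The fits without repeated barcodes, without C1q cells and without a gene's highest cell were chosen after seeing the data. Depth limits all of this: the positive arm holds 348369 UMIs.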
